A study of Mus musculus with 4 samples.

Results

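Ferritin and iron handling genes were followed in mouse mammary tumor cells with and without a disrupted S100a4 gene. The 10 genes were a named set of 21090 in the table. Among them were the ferritin subunits Fth1 and Ftl1, the receptor Tfrc, the reductase Steap3, and the transporters Slc11a2 and Slc40a1. The others were the sensors Ireb2 and Fbxl5 and the ferritin partners Ncoa4 and Pcbp1. The set was chosen by the RPKM of Fth1, which was the highest of any gene in both knockout lines. RPKM counts reads scaled to the length of the gene, here close to its coding length, and to the size of the library. Levels of Fth1 are therefore given as a description with no test. Of the 10 genes, 9 reached the mean RPKM of 1 asked of the 10871 genes tested, whereas Slc40a1 was below it.

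The cells were grown from a mammary tumor that had spread to the lung. The mouse carried MMTV-Cre, in which the mouse mammary tumor virus promoter drives Cre mainly in mammary epithelium, together with mutant Trp53 R270H and Pik3ca H1047R alleles. The study describes the knockout lines as made from this line. The controls were the untreated parental line and a vector control line, and the knockouts were lines given a lentivirus with Cas9 and a guide RNA against exon 3 or exon 2 of S100a4, selected with puromycin, with no cloning step described. Each line gave 1 library, so replicates within a group were different lines, and the sample title gave cell number 308 for the exon 2 knockout and 307 for the other 3 libraries. Whether 308 names the same starting line was not settled by the labels, so its origin cannot be told apart from the editing.

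The read totals behind the RPKM values, worked out from the RPKM steps, were 22472024 to 31235456 per library. Of these, 65.5% to 67.5% fell in genes of the table. The paper gives a larger average number of sequenced reads per sample, so these totals are not the full depth. S100a4 RPKM was 3576 to 4741 in the controls and 1105 to 1136 in the knockouts, in the direction of the labels. All 6 listed mesenchymal markers had a mean RPKM of at least 1, with Vim the highest in each library at 1362 to 2418. Of 6 epithelial markers 2, Krt8 and Krt18, reached that mean, and Epcam and Cdh1 stayed at or below 0.66. The controls were not alike, with Col1a1 at 670 RPKM in parental cells and 6.93 in vector control cells. In the same order Col1a2 was at 808 and 149, Fn1 at 606 and 164, and Krt18 at 60.2 and 6.10. Both knockouts lay between the controls for these genes, and Vim, Pdgfrb and Twist1 differed less between the controls. Macrophages and erythroid cells have iron programs of their own, so their markers were read as well. Of 7 macrophage markers only Cd68 had a mean RPKM of at least 1, Emr1 and Vsig4 were at 0 in every library and Ptprc was at 0.01 or less. Summed macrophage markers were at 4.94 to 5.82 RPKM in the controls and 12.2 to 13.99 in the knockouts, with Cd68, which encodes a lysosomal membrane protein, as the largest part in each library. Cd68 was at 4.92 RPKM in parental cells, 3.36 in vector control cells, 11.5 in exon 3 knockout cells and 13.2 in exon 2 knockout cells. Cd163, a scavenger receptor of macrophages, went the other way, with 89 and 92 reads in the controls and 16 and 14 in the knockouts. In bulk RNA, fewer cells of a type and less RNA per cell cannot be told apart, and the part of these markers in the iron gene values was not tested. Of 6 erythroid markers 5 were at 0 in every library, and the sixth, Klf1, had 5 reads or fewer in each.

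Cells take up iron mostly as transferrin through the transferrin receptor, free it in the endosome, and store what is not used inside ferritin shells built from heavy and light chains. Iron regulatory proteins control this balance after transcription by binding a hairpin, the iron-responsive element, in messenger RNAs. In iron-poor cells the bound proteins block translation of ferritin and ferroportin from elements near the start of the message, and protect the transferrin receptor message from decay through elements in its tail. Ferritin protein is thus not read from its messenger RNA level alone, and the present data hold messenger RNA only.

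Because these hairpins tie the ferritin and receptor genes together, their sequences are shown before the levels. UTRs of complete coding transcripts in GENCODE M21 (GRCm38) were searched on the transcript strand for a C, any 5 bases, then CAGTGN with N other than G, then 5 bases able to pair with the first 5, G to T pairs included. Capitals mark the unpaired C and the loop, and each line runs 5′ to 3′ over 30 bases of exon.
Fth1, 5′ UTR, chr19:9982732-9982761, plus strand: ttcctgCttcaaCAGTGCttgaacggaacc
Ftl1, 5′ UTR, chr7:45459778-45459807, minus strand: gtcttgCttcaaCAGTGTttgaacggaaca
Slc40a1, 5′ UTR, chr1:45925464-45925493, minus strand: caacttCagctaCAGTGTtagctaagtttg
Tfrc, 3′ UTR, chr16:32631219-32631248, plus strand: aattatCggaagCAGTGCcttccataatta
Tfrc, 3′ UTR, chr16:32631598-32631627, plus strand: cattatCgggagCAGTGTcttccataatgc
Tfrc, 3′ UTR, chr16:32631663-32631692, plus strand: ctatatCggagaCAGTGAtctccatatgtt
Tfrc, 3′ UTR, chr16:32631710-32631739, plus strand: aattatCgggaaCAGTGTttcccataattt

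Both ferritin subunits carried the same 5 stem bases on each side of the loop, and Tfrc alone held more than 1 match, with 4 in its 3′ UTR. Such letters were rare, being found in the 5′ UTR of 21 of 19937 genes (0.105%) and in the 3′ UTR of 98 of 20717 genes (0.473%). Slc11a2, Ireb2, Fbxl5, Ncoa4, Pcbp1 and Steap3 had no match, which says only that these letters were not in the UTRs searched. Among the genes tested, the 14 with a 5′ match, Fth1 included, had a median log2 change between knockouts and controls of 0.16. The 65 with a 3′ match had a median of -0.16, beside -0.08 for all genes. After the correction for coding GC and length described below, these medians were 0.31 and -0.02, beside 0.05 for all genes. These are descriptions, and matching letters are not proof of a bound site.

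Fth1 encodes the ferritin heavy chain, the subunit that oxidizes iron as it enters the shell, and lies at chr19:9980598-9985098 on the plus strand. Its RPKM was 4764 in parental cells, 6185 in vector control cells, 19957 in exon 3 knockout cells and 10283 in exon 2 knockout cells. Both knockouts thus had more Fth1 messenger RNA than either control, with the exon 3 line far above the rest. The gene ranked at 3 by RPKM in both controls and at 1 in both knockouts, where Lgals1 was next at 13874 in the exon 3 line and 8283 in the exon 2 line. The increase was 4.19-fold and 3.23-fold in the exon 3 line, over the parental line and the vector control, and 2.16-fold and 1.66-fold in the exon 2 line. By comparison, the vector control was 1.30-fold above the parental line and the exon 3 knockout was 1.94-fold above the exon 2 knockout. The 2 knockouts therefore differed from each other by more than the exon 2 line differed from the vector control. Over both groups the log2 change was 1.40 on the log2(RPKM + 1) scale. Fth1 took 81700 and 86231 reads in the controls and 257194 and 126859 in exon 3 and exon 2 knockout cells, or 0.397% and 0.503% of the reads in genes against 1.64% and 0.862%. Counting error was small beside these gaps, with 95% Wilson intervals of 6144 to 6226 RPKM in the vector control and 10226 to 10339 in the exon 2 knockout, though such intervals cover counting error only.

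**Figure D1:**
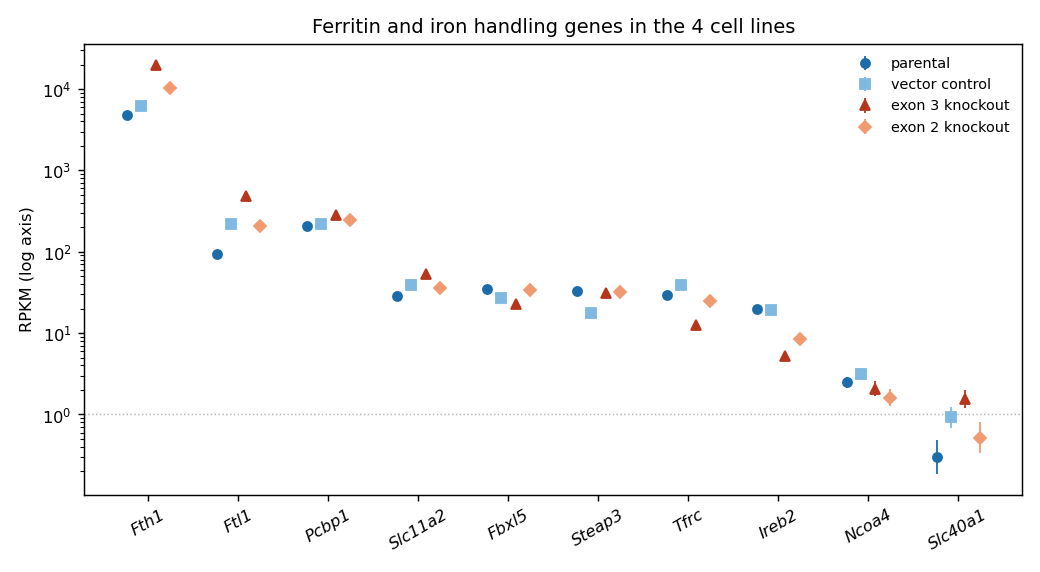
RPKM of the 10 genes in each of the 4 libraries on a log axis, ordered by mean level, with controls in blue and knockouts in red and orange. Bars are 95% Wilson intervals of the reads, mostly smaller than the symbols, and the dotted line is an RPKM of 1. Fth1 stands above every other gene in all libraries, from 4764 to 19957, and Ireb2 and Tfrc have both knockouts below both controls.

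Ftl1 encodes the light chain, which helps form the iron core, and lies at chr7:45457944-45459884 on the minus strand. Its RPKM was 94.1 in parental cells, 219 in vector control cells, 489 in exon 3 knockout cells and 205 in exon 2 knockout cells. Here the groups overlapped, since the exon 2 knockout was just below the vector control (with median-ratio scaling it was above), and the controls themselves were 2.32-fold apart. The log2 change of 1.13 ± 0.46 (SE) had an adjusted p of 0.224 in limma, a linear model fitted across all genes tested. Without the vector control the change was 1.74 and the adjusted p 3.99e-05 in limma, but there the parental line was the only control, the spread came from the 2 knockouts alone, and 451 genes were called. Without the parental line instead the change was 0.53 (adjusted p = 0.348, limma). Ftl1 is a gene with many near copies: 7 other GENCODE genes, 6 of them pseudogenes, matched at least 80% of its coding sequence at 90% identity or more. The closest, Ftl1-ps1, was 99.6% identical and had no row in the table, so the Ftl1 level is uncertain to the extent that reads from such copies were assigned or dropped. Fth1 had 1 such copy, at 90.5% identity.

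Fth1 exceeded Ftl1 by 28.3-fold to 50.6-fold in RPKM in the controls and by 40.8-fold to 50.3-fold in the knockouts. The heavy to light ratio of the messages thus overlapped between the groups, while both subunits reached their highest levels in the exon 3 knockout.

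Tfrc encodes the transferrin receptor, the main entry point for iron, and lies at chr16:32608920-32632794 on the plus strand. Its RPKM was 29.4 in parental cells, 38.9 in vector control cells, 12.5 in exon 3 knockout cells and 25.01 in exon 2 knockout cells. Both knockouts were below both controls, with the exon 3 line at 0.321 of the vector control and the exon 2 line at 0.851 of the parental line. The log2 change of -0.89 ± 0.37 (SE) did not pass the test (adjusted p = 0.227, limma). Fth1 and Tfrc thus stood in opposite order, and their RPKM ratio was 162 in parental and 159 in vector control cells against 1595 in exon 3 and 411 in exon 2 knockout cells. This ratio rests on the gene that chose the set and was not tested.

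Slc11a2 (chr15:100387898-100425072, minus strand) encodes DMT1, the carrier that moves iron out of the endosome. Its RPKM was 28.6 in parental cells, 38.9 in vector control cells, 53.8 in exon 3 knockout cells and 35.4 in exon 2 knockout cells, with the exon 2 line between the controls. Steap3 (chr1:120190757-120272705, minus strand) encodes the endosomal reductase that prepares iron for this carrier. Its RPKM was 32.7 in parental cells, 17.7 in vector control cells, 31.1 in exon 3 knockout cells and 31.6 in exon 2 knockout cells, and the vector control was the low library. Neither change passed the test, at 0.38 ± 0.33 (SE) for Slc11a2 (adjusted p = 0.547) and 0.37 ± 0.35 (SE) for Steap3 (adjusted p = 0.575) in limma.

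Slc40a1 (chr1:45908068-45926523, minus strand) encodes ferroportin, the one known exporter of iron from mammalian cells. It had 16 reads in parental cells, 40 in vector control cells, 62 in exon 3 knockout cells and 20 in exon 2 knockout cells, or 0.299, 0.919, 1.54 and 0.520 RPKM. Levels were low throughout and the groups overlapped. With a mean RPKM of 0.82 it was below the filter and no change was fitted.

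Ireb2 encodes iron regulatory protein 2, which binds the hairpins shown above when iron is scarce, and lies at chr9:54863789-54912530 on the plus strand. Its RPKM was 19.9 in parental cells, 19.0 in vector control cells, 5.29 in exon 3 knockout cells and 8.49 in exon 2 knockout cells. The controls were almost equal and both knockouts were well below either, at 0.266 to 0.446 of a control. With a log2 change of -1.40 ± 0.34 (SE), Ireb2 had the lowest adjusted p of the 8 tested genes other than Fth1, but at 0.105 in limma it did not pass the 0.05 threshold. Over the alternatives its adjusted p in limma ran from 0.0268 to 0.535. It passed with a robust prior (0.0268) and without the parental line (0.0418), but not with median-ratio scaling (0.167), quantile normalization (0.239) or either knockout left out (0.535 and 0.190). With 1 line left out, the lone library of that group is assumed to vary like the other group.

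Fbxl5 (chr5:43744615-43821638, minus strand) encodes the ubiquitin ligase subunit that senses iron and marks Ireb2 protein for degradation. Its RPKM was 35.0 in parental cells, 26.8 in vector control cells, 22.7 in exon 3 knockout cells and 33.7 in exon 2 knockout cells. The groups overlapped, and the log2 change of -0.14 ± 0.33 (SE) did not pass the test (adjusted p = 0.836, limma). The Fbxl5 to Ireb2 RPKM ratio was 1.76 and 1.41 in parental and vector control cells and 4.29 and 3.97 in exon 3 and exon 2 knockout cells.

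Ncoa4 (chr14:32159865-32179855, plus strand) encodes the receptor that delivers ferritin to autophagosomes for breakdown. Its RPKM was 2.49 in parental cells, 3.15 in vector control cells, 2.08 in exon 3 knockout cells and 1.61 in exon 2 knockout cells, on 69 to 152 reads. Both knockouts were below both controls, and the log2 change was -0.42 ± 0.37 (SE; limma adjusted p = 0.545). The annotation holds a pseudogene, Gm6768, 99.9% identical to its coding sequence and with no row in the table, so the low level of Ncoa4 is uncertain. Pcbp1 (chr6:86524492-86526321, minus strand) encodes a chaperone that hands iron to ferritin. Its RPKM was 210 in parental cells, 220 in vector control cells, 282 in exon 3 knockout cells and 243 in exon 2 knockout cells. Both knockouts were above both controls, but the log2 change was only 0.28 ± 0.29 (SE; limma adjusted p = 0.605).

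By mean RPKM, which is scaled to coding length, the order was Fth1, Ftl1, Pcbp1, Slc11a2, Fbxl5, Steap3, Tfrc, Ireb2, Ncoa4 and Slc40a1. Fth1 was far above the rest, with a lowest library at 4764 against a highest Ftl1 library at 489. The ranges of Ftl1 and Pcbp1 overlapped, as did those of each pair of neighbours from Slc11a2 to Ireb2. Within each library Tfrc was above Ireb2, whereas the order of the other overlapping neighbours changed between libraries and is not resolved. Ncoa4 and Slc40a1 were each below the range of the gene before them.

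Of the 8 tested genes other than Fth1, 0 passed an adjusted p of 0.05 in limma, beside 2 of 10871 genes (0.0184%), and limma-voom on the recovered reads called 0 of all genes. At an unadjusted p under 0.05 in limma, Tfrc and Ireb2 were lower in the knockouts, beside 13.8% of all genes, and Ftl1 was higher, beside 5.32%. Ireb2 was the only one at least 2-fold lower in all 4 pairs of a knockout and a control, beside 1.73% of all genes, though not with median-ratio scaling, quantile normalization or the GC and length correction described next, and 0 of the 8 were at least 2-fold higher in all pairs, beside 0.267%. Groups did not overlap for 3 genes that were lower in the knockouts, Tfrc, Ireb2 and Ncoa4, beside 31.2% of all genes, and for Pcbp1, which was higher, beside 21.9%. Fth1 also had separate groups, but its values chose the set and it is left out of these counts. An exact permutation test of a single gene with 2 libraries against 2 cannot give a two-sided p below 0.333.

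Changes across all genes went with the base composition of the coding sequence, and the iron genes span that range. In the eighth of genes with the lowest GC content, up to 45.2%, the median log2 change was -0.68 with quartiles at -0.95 and -0.35. Tfrc (41.6% GC), at -0.89, was between these quartiles, and Ireb2 (42.3% GC), at -1.40, was below the lower one. Fbxl5 (45.25% GC) fell in the next eighth, whose median was -0.46. Fth1 (49.9% GC) was in the third eighth, with a median of -0.23 and an upper quartile of 0.11; its own value, 1.40, chose the set and is only placed here. Ftl1, Pcbp1 and Steap3 (58.5% to 59.6% GC) were in the seventh, with a median of 0.24, and of these only Ftl1 was above the upper quartile of 0.51.

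**Figure D2:**
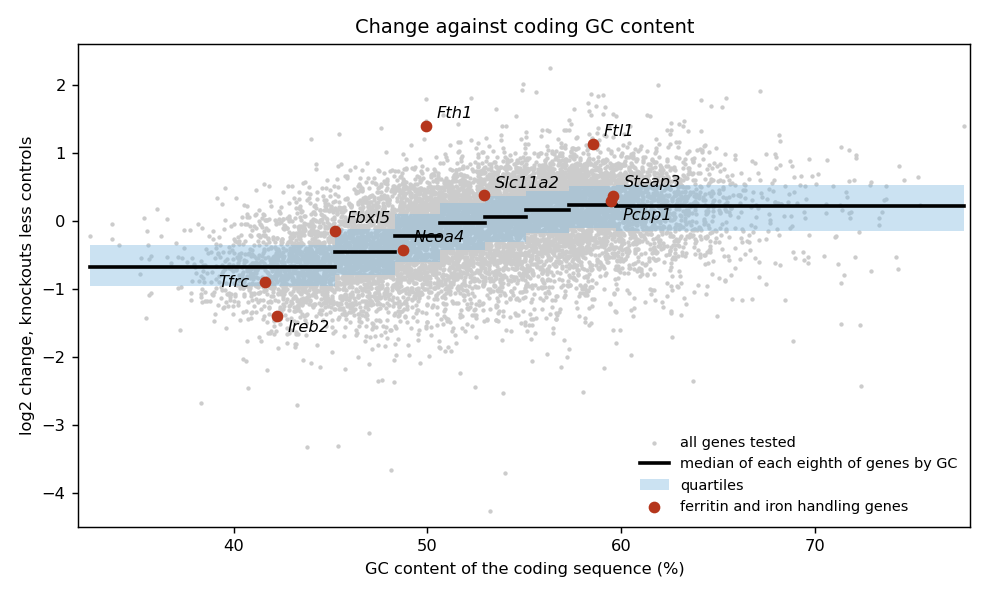
Log2 change between knockouts and controls, on the log2(RPKM + 1) scale, against the GC content of the coding sequence for all genes tested (grey) and the 9 iron genes (red). Black lines and blue bands are the median and quartiles of each eighth of genes by GC, from -0.68 in the lowest to 0.24 in the seventh. Fth1 and Ftl1 lie above their bands, Ireb2 below its band and Tfrc inside it.

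When each library was corrected for coding GC content and coding length by a spline over genes, the log2 change of Fth1 was 1.48 and that of Ftl1 was 0.81. Tfrc moved from -0.89 to -0.13 and Ireb2 from -1.40 to -0.60, where Ireb2 had an adjusted p of 0.377 in limma. Fbxl5 changed direction, from -0.14 to 0.46, and Pcbp1 moved from 0.28 to 0.06. After this correction both knockouts were above both controls for Fth1 and Fbxl5 and below both for Ireb2, and the groups of Tfrc, Ncoa4 and Pcbp1 overlapped. The part of base composition in these values was not tested further, and the correction would also remove any real change that follows GC content.

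**Figure D3:**
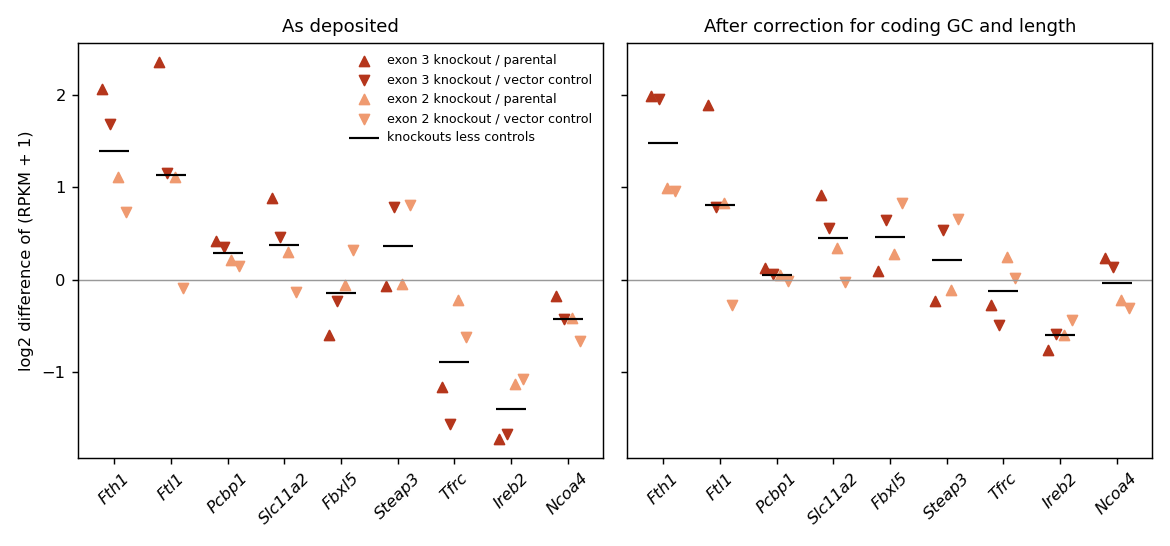
Log2 difference of RPKM + 1 for each of the 4 pairs of a knockout and a control (triangles) and for the groups (black bars), as deposited on the left and after correction for coding GC and length on the right. Fth1 is above 0 in all pairs in both panels, and the Ireb2 bar moves from -1.40 to -0.60 and the Tfrc bar from -0.89 to -0.13.

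A wider list of 84 other iron genes, all with a row in the table, gave the setting of these values. Of the 72 tested, 0 passed an adjusted p of 0.05 in limma, while at an unadjusted p under 0.05 there were 5 higher (all genes, 5.32%) and 9 lower (all genes, 13.8%). Both knockouts were above both controls for 22 (all genes, 21.9%) and below both for 18 (all genes, 31.2%). The median log2 change was 0.20 beside -0.08 for all genes, and 0.17 beside 0.05 after correction for coding GC and length. From each group up to 3 genes with the largest changes are named.

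Among 13 genes of uptake and endosomal iron, 11 were tested. Both knockouts were higher for 2 (all genes, 21.9%) and lower for 4 (all genes, 31.2%). Trf, which encodes transferrin, had an RPKM of 9.80 in parental cells, 1.90 in vector control cells, 13.4 in exon 3 knockout cells and 25.6 in exon 2 knockout cells (adjusted p = 0.141, limma). Its low value was in the vector control. When the parental line was left out, its change of 2.76 had an adjusted p of 4.27e-07 in limma, with this low library as the only control and the spread taken from the 2 knockouts alone. When the vector control was left out instead, the change was 0.86 (adjusted p = 0.260, limma). Steap4, a metalloreductase, had an RPKM of 0.295 in parental cells and 8.47 in vector control cells but no reads in either knockout, where 3 reads would be 0.0905 and 0.0945 RPKM in the exon 3 and exon 2 lines. Its difference thus turned on 1 control library, and the fitted change depends on the pseudocount. Slc39a8, a metal ion importer, was at 2.03 and 5.09 RPKM in parental and vector control cells and at 1.28 and 1.08 in exon 3 and exon 2 knockout cells (adjusted p = 0.242, limma).

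Export and its control had little signal, since 7 of 9 genes were below a mean RPKM of 1, among them both hepcidin genes Hamp and Hamp2 and the ferroxidases Heph and Hephl1. Cp, the ferroxidase ceruloplasmin, had an RPKM of 50.7 in parental cells, 25.98 in vector control cells, 26.9 in exon 3 knockout cells and 48.8 in exon 2 knockout cells. Neo1, a receptor in hepcidin control, ranged from 30.05 to 51.8 RPKM with overlapping groups.

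All 4 partners of iron sensing were expressed. Aco1, the other iron regulatory protein, had an RPKM of 22.6 in parental cells, 30.3 in vector control cells, 21.4 in exon 3 knockout cells and 22.1 in exon 2 knockout cells. Its log2 change of -0.25 ± 0.31 (SE) was small beside that of Ireb2, although the difference between the paralogs was not tested. Cul1, the scaffold of the ligase that holds Fbxl5, was at 26.5 and 33.8 RPKM in parental and vector control cells and at 12.04 and 21.2 in exon 3 and exon 2 knockout cells. Rbx1, the ring subunit of that ligase, was at 42.3 and 72.5 RPKM against 84.5 and 80.2 in the same order. Adjusted p values in limma were 0.220 for Cul1 and 0.367 for Rbx1. After correction for coding GC and length the change of Cul1 moved from -0.86 to -0.12 and that of Rbx1 from 0.56 to 0.31.

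Storage, chaperone and ferritin turnover genes held 7 tested of 8, and mitochondrial ferritin, Ftmt, had no reads in any library. Both knockouts were higher for 3 (all genes, 21.9%) and lower for 2 (all genes, 31.2%). Bola2, which works with a glutaredoxin in cytosolic iron delivery, had an RPKM of 95.8 in parental cells, 136 in vector control cells, 186 in exon 3 knockout cells and 229 in exon 2 knockout cells. Tax1bp1, an autophagy adaptor that acts with Ncoa4, was at 31.6 and 45.04 RPKM in parental and vector control cells and 13.6 and 27.5 in exon 3 and exon 2 knockout cells. Pcbp4, a relative of Pcbp1, was at 69.4 and 65.5 RPKM against 86.0 and 127 in the same order. Adjusted p values in limma were 0.193 for Bola2, 0.220 for Tax1bp1 and 0.296 for Pcbp4. After the GC and length correction the change of Tax1bp1 moved from -0.93 to -0.18, that of Bola2 from 0.85 to 0.38 and that of Pcbp4 from 0.63 to 0.41. The groups of Bola2 then overlapped, with a log2 difference of -0.10 between the exon 3 line and the vector control.

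Mitochondrial iron and iron-sulfur cluster genes made up the largest list, with all 27 tested. Their median log2 change was 0.28, 22 were above 0 beside 4897 of all 10871 genes, and both knockouts were higher for 11 (all genes, 21.9%) and lower for 3 (all genes, 31.2%). Fdx1l, a ferredoxin of cluster assembly, had an RPKM of 48.1 in parental cells, 57.4 in vector control cells, 105 in exon 3 knockout cells and 94.8 in exon 2 knockout cells (adjusted p = 0.162, limma). Cisd1, an outer membrane iron-sulfur protein, was at 121 and 119 RPKM in parental and vector control cells and 207 and 175 in exon 3 and exon 2 knockout cells (adjusted p = 0.249, limma). The list was GC-rich, with a median of 55.8%, and after correction for coding GC and length its median change was 0.17 beside 0.05 for all genes. With that correction the change of Fdx1l moved from 0.91 to 0.58 and that of Cisd1 from 0.66 to 0.46.

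Heme genes numbered 19, of which 17 were tested and 12 had a change above 0, beside 4897 of all 10871 genes. Both knockouts were higher for 4 (all genes, 21.9%) and lower for 3 (all genes, 31.2%). Slc48a1, which carries heme out of lysosomes, had an RPKM of 147 in parental cells, 186 in vector control cells, 460 in exon 3 knockout cells and 226 in exon 2 knockout cells (adjusted p = 0.202, limma). As for Fth1, the exon 3 line was the highest by a wide margin. Uros, an enzyme of heme synthesis, was at 3.03 and 7.46 RPKM in parental and vector control cells and 2.59 and 2.15 in exon 3 and exon 2 knockout cells, and Mfsd7b, a heme exporter, was at 4.01 and 4.38 against 1.93 and 2.53. Adjusted p values in limma were 0.317 for Uros and 0.310 for Mfsd7b. After correction for coding GC and length the change of Slc48a1 moved from 0.96 to 0.58, that of Uros from -0.80 to -0.64 and that of Mfsd7b from -0.69 to -0.72.

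The last 4 genes are known for iron-responsive elements outside the core set. Epas1, which encodes the hypoxia factor HIF-2α, had an RPKM of 2.79 in parental cells, 2.16 in vector control cells, 0.389 in exon 3 knockout cells and 0.424 in exon 2 knockout cells. It was the only one of the 72 at least 2-fold lower in all pairs on the RPKM + 1 scale, beside 1.73% of all genes. The knockout levels rested on 24 reads in the exon 3 line and 25 in the exon 2 line. The change of Epas1 was -1.30 before and -1.29 after correction for coding GC and length (adjusted p = 0.139 before correction, limma). Cdc14a, a phosphatase, was at 2.79 and 3.96 RPKM in parental and vector control cells and 1.19 and 1.13 in exon 3 and exon 2 knockout cells. Cdc42bpa, a kinase, was at 13.1 and 14.01 RPKM against 5.44 and 8.45 in the same order, and its change moved from -0.90 to -0.04 after that correction. Adjusted p values in limma were 0.194 for Cdc14a and 0.198 for Cdc42bpa, and the change of Cdc14a moved from -1.004 to -0.48 with it.

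**Figure D4:**
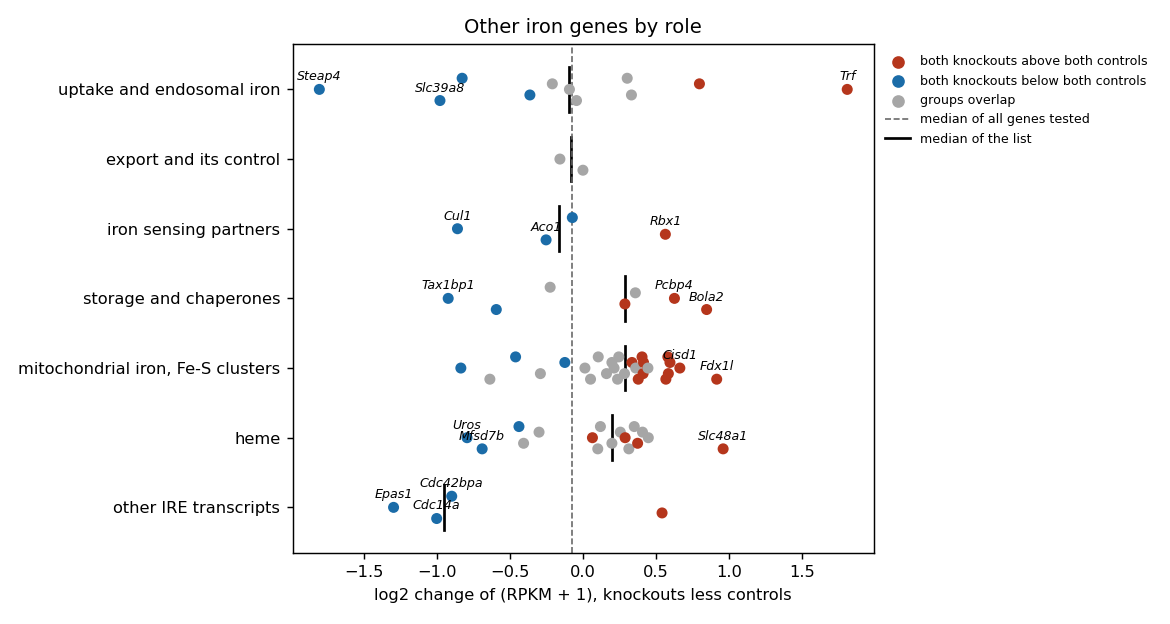
Log2 change of RPKM + 1 between knockouts and controls for the 72 tested genes of 7 iron lists, 1 point a gene, colored by whether both knockouts were above (red) or below (blue) both controls. Vertical bars are list medians and the dashed line is the median of all genes at -0.08. The mitochondrial list has a median of 0.28 with 22 of 27 genes above 0.

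Profiles over the 4 libraries nearest to that of Fth1 were ranked by Euclidean distance between log2(RPKM + 1) values centred on each gene's mean. Among all tested genes the nearest were 2310039H08Rik (distance 0.16), 1190007I07Rik (0.18), Rpl36 (0.24), C030006K11Rik (0.36) and Cbr3 (0.38). All were far less abundant, with Rpl36, a ribosomal protein gene, at 22.3 RPKM in parental cells, 24.8 in vector control cells, 95.1 in exon 3 knockout cells and 52.6 in exon 2 knockout cells. Among the 998 genes with a mean RPKM of at least 100, the nearest were Slc48a1 (0.44), Lonp1 (0.48), Aldh2 (0.54), Igfbp4 (0.54) and H2-D1 (0.58). H2-D1, a class I antigen gene with close paralogs, was at 575 RPKM in parental cells, 715 in vector control cells, 1479 in exon 3 knockout cells and 1192 in exon 2 knockout cells. Likeness was measured over 4 libraries only and on the Fth1 values that chose the set. Slc48a1, the heme transporter gene named above, came first only in the pool with a mean RPKM of at least 100. The neighbours named by this ranking had 57.6% to 68.1% coding GC, beside 49.9% for Fth1.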

How the data were processed

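RNA was taken from 4 cultured lines and, per the labels, made into stranded total RNA libraries. The authors deposited 1 table of RPKM values with 1 column per library. The submitters' processing notes name CASAVA 1.8, GSNAP and GRCm38, and the counting tool and gene model behind the table are not given in the sources used here. Whole reads were recovered from the RPKM steps for 15404 of 15405 genes above 0, within 0.001 reads. They gave the Wilson 95% intervals, with the read total behind RPKM in each library worked out from the same steps.

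Parental and vector control lines were compared with both knockouts by limma 3.58.1 (R 4.3.3) with an intensity trend on log2(RPKM + 1), for genes with a mean RPKM of at least 1, with Benjamini-Hochberg adjustment over all 10871. Nothing says that libraries came from separate cultures, so p-values measure the spread between lines. Coding GC, lengths, UTRs and copies (blastn 2.17.0) came from GENCODE M21 on GRCm38, matched by symbol for 20972 of 21090 genes. Named genes were the 10 members, up to 3 genes per other iron list by absolute change, and the 5 nearest profiles to Fth1 in each pool, and some genes that this rule or a list holds are not reported here. The members and lists were chosen with earlier results of these data known. Alternatives were other scalings, pseudocount, filters, priors, a GC and length correction, limma-voom on the recovered reads, and leaving out each library.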

Additional observations from a re-analysis of the deposited data

How the results depend on the processing

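With 2 lines a group and 1 library a line, calls turned on the estimate of the spread. Genes called, 2 in all, numbered 0 with median-ratio scaling, with no filter, with the GC and length correction and with limma-voom, 1 with quantile normalization or a pseudocount of 0.1, 32 with a filter at a mean RPKM of 5, 285 with a robust prior, and 3 to 788 when a library was left out, the vector control giving 451 and the parental line 788 when absent. Median-ratio scaling moved the median of all genes by 0.10. Below, Fth1 is left out of the iron genes called but is in the fold and overlap counts, although its values chose the set. As deposited, 1.73% of all genes were at least 2-fold lower in all pairs and 0.267% were higher. Groups did not overlap for 31.2% of all genes that were lower and 21.9% that were higher. Shares of all genes under the other settings are not given here, so the counts only describe the iron genes. Iron genes called numbered 1 with a robust prior (Ireb2) and 0 to 1 when a library was left out. Those at least 2-fold apart in all pairs numbered 0 with median-ratio scaling or the correction, 1 with quantile normalization (Fth1 and no longer Ireb2), 2 at a fold of 1.5 (Fth1 and Ireb2), and 1 to 4 when a library was left out, with 3 without the vector control and 4 without the exon 2 knockout. Those not overlapping, 5 in all, numbered 3 with quantile normalization (Fth1, Tfrc and Ireb2) or the correction, 4 with the filter at 5, 7 with median-ratio scaling (Ftl1 and Slc11a2 in addition), and 5 to 9 when a library was left out, since a group of 1 separates more easily.

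Over 13 alternatives, 112 of 116 values of the iron genes kept their sign, with Fth1, whose values chose the set, counted among them. No filter, the filter at a mean RPKM of 5, the fit without a trend and the robust prior left each log2 change as it was. Signs could not change under those settings, so this count overstates how far the signs were tried. Fth1 ranged from 1.08 to 1.51 with all libraries and from 0.92 to 1.88 with 1 left out. With the GC and length correction Fbxl5 changed sign to 0.46, Neo1 to 0.42, Cp to 0.81 and Aco1 to 0.034, and Cp also to 0.11 with median-ratio scaling and 0.0024 with quantile normalization. With 1 library left out, Fbxl5 ranged from -0.42 to 0.13, Steap3 from -0.056 to 0.80, Neo1 from -0.51 to 0.19 and Cp from -0.47 to 0.47. Neo1, Cp and Aco1 made up the 9 changes of sign among 254 values of the other named iron genes, again counting settings that cannot change a sign. The causes were not tested. No paired analysis was possible because the labels give the libraries no shared replicate numbers.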
